A study of Mus musculus with 6 samples.

Results

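Limb and skeletal patterning in the mouse depends on families of homeobox and T-box transcription factors, and their transcripts were measured here in bone cells from control and dexamethasone-treated mice. The members were taken by gene symbol alone, as the genes of the Irx, Tbx, sine oculis homeobox, Meis, Pbx, Lhx, Alx, Prrx, Meox, Pitx and Barx families and Shox2. Of 53 such symbols in the GENCODE M21 annotation, 43 had a row among the 29616 genes of the deposited table. The other 10, among them Barx2, Irx4, Irx6, Lhx5, Meox2, Tbx1, Tbx5, Tbx21 and Tbx22, were not analysed here. RNA sequencing covered 3 libraries of control mice and 3 of mice that received dexamethasone, which is a synthetic glucocorticoid, at 0.08 µg/g body weight daily for 4 weeks from 8 weeks of age. All mice were of the C57BL/6 strain, and the 3 libraries of a group are described as biological replicates, without naming the animals behind them, so that p-values measure the spread between these libraries. The labels name the material bone cells, and the study's text describes Osteocalcin-positive cells isolated from demarrowed bones. Whether a library held 1 mouse or a pool, and whether the control mice of this experiment received saline, were not given in the sources used here.

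Homeobox genes encode proteins that bind DNA through a homeodomain, and T-box genes encode proteins with a T-box DNA-binding domain. In the embryo they assign position and identity to groups of mesenchymal cells, and several act early in the skeleton. Prrx1 marks limb bud mesenchyme and skeletal progenitors, sine oculis and Iroquois genes act in craniofacial and limb mesenchyme, and MEIS and PBX proteins bind DNA together with HOX proteins. Pitx1 and Tbx4 are the classical factors of hindlimb identity, and Tbx5 is that of the forelimb.

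The libraries held 72596611 to 89910728 reads assigned to genes, recovered from the deposited normalized counts (reads divided by 1 size factor per library). Over genes (which are no independent replicates), Pearson's r ranged from 0.995 to 0.996 inside a group and from 0.947 to 0.95 across groups. Genes averaging 10 or more normalized counts in the 6 libraries were tested with limma on log2(normalized count + 1), and the added 1 makes the fold change of low genes smaller than the ratio of their counts. A gene is called differentially expressed at a Benjamini-Hochberg adjusted p-value under 0.05 over all 17442 tested genes and a change of 1 or more, up or down, on the log2 scale. Values by library are listed in the order of replicates 1, 2 and 3. All 11 osteoblast markers had reads in each library. Of these, 8 were differentially expressed and lower and 2 (Spp1 and Dmp1) higher, beside 10.6% and 11.7% of all tested genes. Their sums were 2009100.0 to 2137790.0 normalized counts in the control libraries and 2010800.0 to 2142750.0 in the dexamethasone libraries. These similar sums hid opposite changes, since Spp1 rose from a mean of 33595 to 1279670 while Col1a1 fell from 961923 to 261192 and Col1a2 from 1065430 to 516035. Runx2 had 15301 and 4541 normalized counts in the control and dexamethasone libraries. The Osteocalcin genes were lower than that, Bglap at 107 and 12.2 and Bglap2 at 324 and 31.3. Of 8 genes per list for other cell types, the endothelial list had 6 with a row, 4 tested and 0 differentially expressed. At an adjusted p-value under 0.05 alone, 3 of the 4 were higher. Of all tested genes, 37.2% were higher at this threshold and 72.5% passed in either direction. The sum of the endothelial list was 2156 to 2279 normalized counts in the control libraries and 3257 to 3864 in the dexamethasone libraries. Vwf carried this difference, with means of 1825 and 3097, while Kdr had 348 and 414 and Pecam1 15.7 and 26.3. Tek had 12.6 and 8.11 with groups that overlapped, and Cdh5 had 0 to 2 reads. The pan-hematopoietic list had 5 of 8 genes tested, 2 higher and 2 lower, with sums of 6697 to 6962 normalized counts in the control libraries and 8102 to 8596 in the dexamethasone libraries that came mostly from Arhgdib. Ptprc had 2 to 5 reads, and the hemoglobin genes Hbb-bs and Hba-a1 had 4 to 9 and 0 to 2 reads. The 2 higher genes were Cd53, with means of 15.7 and 283 normalized counts, and Itgb2, with 54.6 and 503. The skeletal muscle list had 2 of 6 genes with a row tested and 1 lower, with sums of 70.3 to 82.2 normalized counts in the control libraries and 40.7 to 66.8 in the dexamethasone libraries, and Myf5 and Pax7 had 0 to 3 reads. The chondrocyte list had 4 of 8 tested, 2 higher and 2 lower, with sums of 6369.5 to 6820.1 normalized counts in the control libraries and 22253 to 25109 in the dexamethasone libraries, and it was carried by Sox9, which rose from 4609 to 17406, and Col2a1, which rose from 1517 to 5687, while Acan had 0 to 6 reads. The pericyte and smooth muscle list had 7 of 7 tested and 2 lower, with sums of 172214 to 181680.0 normalized counts in the control libraries and 43219.7 to 47166 in the dexamethasone libraries. Acta2 carried this difference, with means of 144918 and 12449, and Notch3 was the other lower gene. Pdgfrb had means of 22706.5 and 21513.4 with groups that overlapped, and Cspg4 went up from 7548 to 10185. The tendon and fibroblast list had 5 of 6 tested, 1 higher and 2 lower, with sums of 12401 to 13234 normalized counts in the control libraries and 13393 to 14042 in the dexamethasone libraries. The part of these markers in the differences below was not tested. In bulk samples, fewer cells of a type and less RNA per cell cannot be told apart.

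The patterning genes changed in both directions, and more of them fell than rose. The strongest decreases among well expressed members were those of Irx5 and Irx3, 2 Iroquois genes that are neighbours on chromosome 8, and the strongest increase was that of the LIM-homeobox gene Lhx6. Of the 43 genes, 31 were tested and 12 had too few reads. Of the 31, 11 were differentially expressed (35.5%, against 22.3% of all tested genes). Of these, 7 were lower with dexamethasone (22.6%, against 10.6%), and 4 were higher (12.9%, against 11.7%). Lhx2 and Meox1, among the 7 lower genes, passed the filter on low values through their control libraries alone. At an adjusted p-value under 0.05 without a requirement on the fold change, 18 were lower (58.1%, against 35.2% of all tested genes) and 7 were higher (22.6%, against 37.2%). In either direction this came to 25 of 31, or 80.6%, near the 72.5% of all tested genes that passed. The values of the control and dexamethasone libraries did not overlap for 25 of the 31, with 18 lower and 7 higher with dexamethasone (beside 74.7% of all tested genes, 36.4% lower and 38.4% higher). The median log2 fold change of the 31 was -0.43, beside 0.000712 for all tested genes. This median of the members was between -0.55 and -0.38 over all alternatives.

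**Figure D1:**
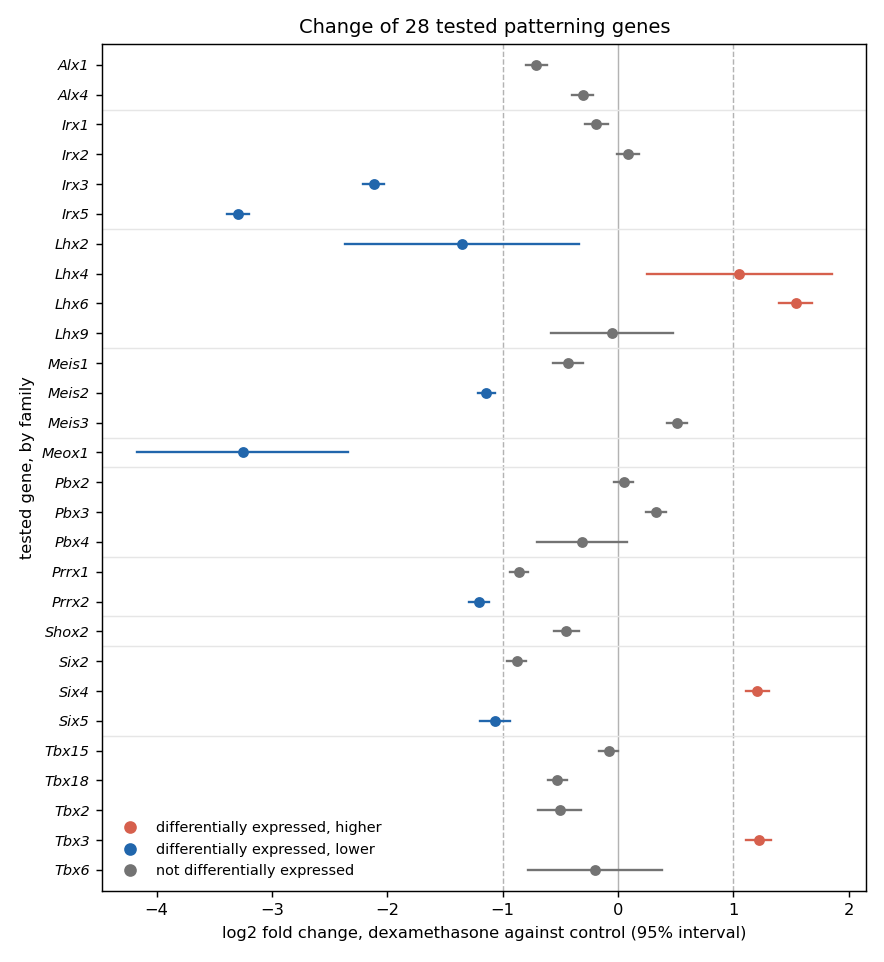
Log2 fold change of 28 tested patterning genes, dexamethasone against control, on the horizontal axis, with 95% intervals from limma and dashed lines at the cut-offs of -1 and 1. Genes are grouped by family, blue points mark the 7 differentially expressed and lower genes, red points the 4 higher ones and grey points the other 17.

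The Iroquois genes encode homeodomain proteins of the TALE class that act in the patterning of limb, heart and nervous system, and in mammals they lie in clusters. Irx5 had normalized counts of 11052, 12328 and 11521 without and 1241, 1116 and 1206 with dexamethasone. Every dexamethasone library lay far under every control library. Irx5 fell from a mean normalized count of 11634 (SD 645, n = 3) to 1188 (SD 64.4, n = 3), or -3.29 on the log2 scale (limma, SE 0.0455, adjusted p = 1.87e-26), and 103 of the 17442 tested genes had a lower fold change. Irx3 had normalized counts of 5175, 5619.6 and 5233 without and 1245, 1175 and 1267 with dexamethasone. It fell from a mean normalized count of 5343 (SD 242, n = 3) to 1229 (SD 48.2, n = 3), or -2.12 on the log2 scale (limma, SE 0.0447, adjusted p = 5.68e-23). The fold change over all alternatives was -3.43 to -3.25 for Irx5 and -2.27 to -2.08 for Irx3. Irx1 and Irx2 neighbour each other on chromosome 13, and neither was differentially expressed. Irx1 had normalized counts of 3097, 3272 and 3077 without and 2947, 2558 and 2803 with dexamethasone, so that the groups lay apart by a small margin. Its log2 fold change was -0.19 (limma, adjusted p = 0.00108), far under the cut-off. Irx2 had normalized counts of 2005, 2066 and 1957 without and 2239, 2047 and 2110.4 with dexamethasone, and the groups overlapped. The log2 fold change of Irx2 was 0.08 (95% interval -0.01 to 0.18, limma adjusted p = 0.0987), and it was -0.03 with all libraries rescaled to the same total (where the median of all tested genes was -0.11) and -0.06 after quantile normalization.

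The order of the Iroquois genes was not the same in the groups. Per kilobase of exon, used here to compare levels of different genes, Irx5 was the highest of the 4 in the control libraries at 3721 normalized counts per kb. It was followed by Irx3 at 1934, Irx1 at 1202 and Irx2 at 612. In the dexamethasone libraries Irx1 led at 1057, before Irx2 at 649.6, Irx3 at 445 and Irx5 at 379.8. The ratio of Irx5 to Irx1 per kb was 2.99, 3.16 and 3.14 in the controls and 0.353, 0.366 and 0.360 with dexamethasone. The ratio of Irx5 to Irx3 was 1.89, 1.94 and 1.94 and 0.881, 0.839 and 0.840. Per kb, Irx5 was thus above Irx3 in each control library and below it in each dexamethasone library. In normalized counts not divided by length, Irx5 and Irx3 were close with dexamethasone, at 1241 and 1245, 1116 and 1175, and 1206 and 1267.

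Several genes beside Irx3 and Irx5 were lower as well. Along chromosome 8 the protein-coding genes before Irx3 in the annotation are Aktip, Rpgrip1l and Fto, and their log2 fold changes were -1.04, -1.59 and -0.90 (limma, adjusted p = 4.28e-17, 1.17e-21 and 5.4e-16), with Fto short of the cut-off. Fto encodes an RNA demethylase and Rpgrip1l a protein of the primary cilium. Beyond Irx5 and Irx6 follows Mmp2, a matrix metalloproteinase, at -1.02 (limma, adjusted p = 4.84e-17), and then Lpcat2 at 0.09 (limma, adjusted p = 0.439). Around Irx1 and Irx2 none of Med10, Ice1, Ndufs6 and Mrpl36 was differentially expressed, with log2 fold changes of 0.28, -0.13, -0.42 and -0.23. These neighbours were chosen after the values of the Irx genes were seen. The antisense gene Irx3os overlaps 4.49% of the exon bases of Irx3 and had 260, 310 and 347 reads in the controls and 62, 65 and 42 with dexamethasone. Since the strand setting of the count was not given, reads of this overlap cannot be assigned to either gene, but Irx3os was small beside Irx3.

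**Figure D2:**
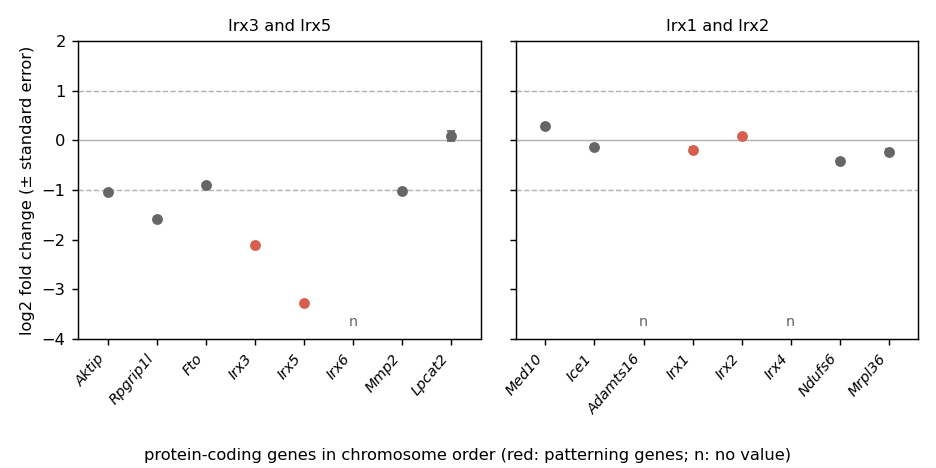
Log2 fold change with its standard error (vertical axis, often smaller than the point) of protein-coding genes in their order along the chromosome (horizontal axis), around Irx3 and Irx5 and around Irx1 and Irx2, with patterning genes in red and n for genes without a value. Irx5 (-3.29) and Irx3 (-2.12) are the lowest points, and the points around Irx1 and Irx2 stay between -0.42 and 0.28.

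The sine oculis homeobox proteins are homeodomain factors that act with EYA coactivators and DACH corepressors in muscle, kidney and craniofacial development, and Six2 also marks skeletal progenitors of the skull. Six4, on chromosome 12, had normalized counts of 1719, 1667 and 1607 without and 3956, 4022 and 3564 with dexamethasone. It rose from a mean normalized count of 1664 (SD 55.7, n = 3) to 3847 (SD 248, n = 3), or 1.21 on the log2 scale (limma, SE 0.0472, adjusted p = 2.12e-17), and its groups lay apart. Six2 had normalized counts of 7218, 7649 and 7349 without and 4235, 3841 and 4016 with dexamethasone, or -0.88 on the log2 scale (limma, adjusted p = 4.99e-16). Six2 was short of the cut-off, although its groups lay apart, and passed it only after quantile normalization, at -1.06. Six5, a gene beside Dmpk on chromosome 7, had normalized counts of 1005, 1081 and 1094 without and 503, 533 and 481 with dexamethasone. It fell by 1.07 on the log2 scale (SE 0.0635, limma adjusted p = 1.17e-13), and Dmpk, which encodes a protein kinase of muscle, had a log2 fold change of -1.56. Dmpk is on none of the partner lists, and neighbours of other lower members could go the other way, as Ptges beside Prrx2 did at 1.41. The groups of Six5 lay apart as well.

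Of the 6 genes for partners of the sine oculis proteins, 4 were tested. Of these, 2 were differentially expressed and lower and 0 higher, beside 10.6% and 11.7% of all tested genes. At an adjusted p-value under 0.05 without the fold cut-off, 2 were lower and 2 higher, beside 35.2% and 37.2% of all tested genes. Eya4 fell from a mean normalized count of 20976 (SD 193, n = 3) to 9267 (SD 233, n = 3), or -1.18 on the log2 scale (limma, adjusted p = 4.56e-20). Eya1 fell from a mean normalized count of 7285 (SD 109, n = 3) to 3104 (SD 104, n = 3), or -1.23 on the log2 scale (limma, adjusted p = 1.19e-19). Both encode coactivators with phosphatase activity. Eya3 and Dach2 were not differentially expressed, with log2 fold changes of 0.39 and 0.98 (limma, adjusted p = 3.12e-09 and 1.63e-06), and Dach1 and Eya2 had 0 to 5 reads in each library.

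The 250 bases before the annotated start of Six5 are shown because they hold the letters TGACAG, the core bound by MEIS proteins, and contain no annotated exon base in GENCODE M21. They lie at chr7:19094294-19094543 on the plus strand of GRCm38.p6 (RefSeq) and are written 5′ to 3′ with TGACAG in capitals.
Six5: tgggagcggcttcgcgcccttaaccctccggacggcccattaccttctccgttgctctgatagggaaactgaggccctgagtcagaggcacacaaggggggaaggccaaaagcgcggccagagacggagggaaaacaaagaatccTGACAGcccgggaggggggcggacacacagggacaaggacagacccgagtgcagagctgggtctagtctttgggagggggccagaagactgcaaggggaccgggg
The first base of TGACAG is 105 bases before the start. These letters, on either strand, were in 6 of 35 such windows of the members and in 15.9% of all 32851 windows of this length. A match is a description of the sequence only.

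Prrx1 and Prrx2 encode paired-related homeodomain proteins of limb and skeletal mesenchyme, and they were the members with the highest levels per kb in both groups. Per kb of exon, Prrx1 had 7089 normalized counts in the control and 3904 in the dexamethasone libraries, and Prrx2 had 5622 and 2442. Prrx2 had normalized counts of 10508, 11352 and 11212 without and 4829.6, 4519 and 5015 with dexamethasone. It fell from a mean normalized count of 11024 (SD 452, n = 3) to 4788 (SD 251, n = 3), or -1.20 on the log2 scale (limma, SE 0.0410, adjusted p = 1.21e-18). Prrx1 had normalized counts of 76183, 79606 and 79561 without and 44158, 42374 and 43089 with dexamethasone. Its log2 fold change of -0.86 (95% interval -0.94 to -0.78, limma adjusted p = 3.89e-16) did not reach the cut-off under any alternative, with a range of -0.97 to -0.85. For both genes all control libraries were above all dexamethasone libraries. Shox2, a homeobox gene of proximal limb growth, went from a mean normalized count of 1773 (SD 40.2, n = 3) to 1301 (SD 82.3, n = 3), or -0.45 on the log2 scale (limma, adjusted p = 2.52e-08), and the antisense gene Rsrc1, at 3309 and 4215 normalized counts, overlaps 4.62% of its exon bases. Alx1 and Alx4, aristaless-like genes of craniofacial and limb mesenchyme, had log2 fold changes of -0.71 and -0.31 (limma, adjusted p = 2.83e-13 and 9.97e-07). Alx1 had normalized counts of 2620.2, 2723 and 2526 without and 1616, 1588 and 1613 with dexamethasone. Alx4 had normalized counts of 8797, 9659.8 and 9000.3 without and 7964, 7005 and 7232 with dexamethasone, a narrower gap. None of Shox2, Alx1 and Alx4 was differentially expressed, although the groups lay apart for each.

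**Figure D3:**
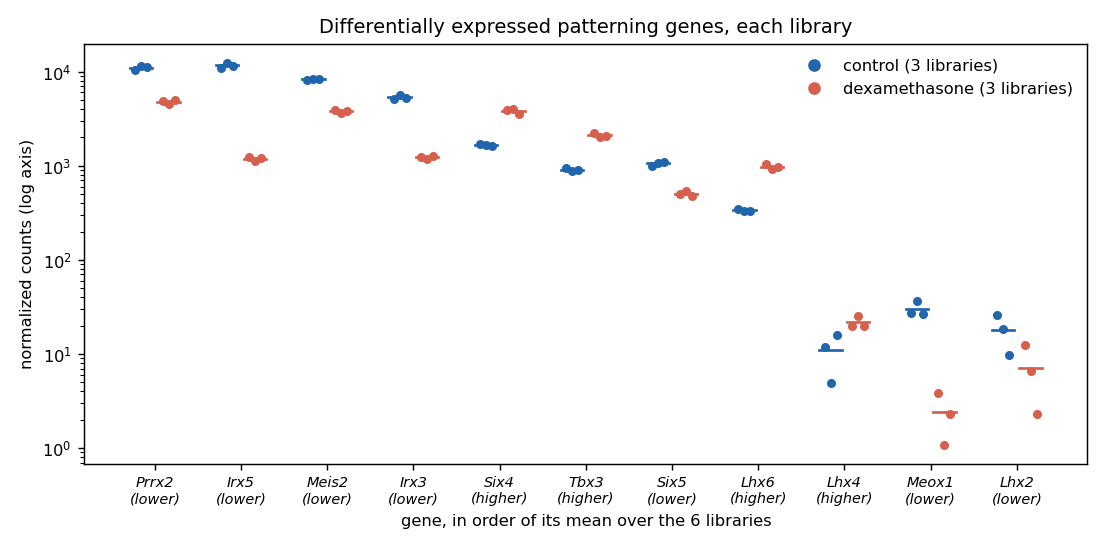
Normalized counts (log axis) of the 11 differentially expressed patterning genes in each of the 3 control (blue) and 3 dexamethasone (red) libraries, with a line at each group's mean and genes ordered by their mean over all libraries. The groups lie apart for 10 of the 11 genes, the exception being Lhx2, and Lhx4, Meox1 and Lhx2 lie well under the other 8 genes.

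The MEIS and PBX proteins are TALE homeodomain cofactors that bind DNA with each other and with HOX proteins. The 3 Meis genes went in different directions. Meis2 had normalized counts of 8222, 8335 and 8428 without and 3872, 3656 and 3796 with dexamethasone. It fell from a mean normalized count of 8328 (SD 103, n = 3) to 3775 (SD 109.6, n = 3), or -1.14 on the log2 scale (limma, SE 0.0364, adjusted p = 2.92e-19). Meis1 had normalized counts of 950.2, 926 and 988 without and 761, 669 and 689.5 with dexamethasone, or -0.43 on the log2 scale (limma, adjusted p = 9.22e-07), and Gm37818 on the same strand, with 8 to 23 reads, overlaps 9.77% of its exon bases. Meis3 had normalized counts of 1964, 1939 and 1966 without and 2901, 2697 and 2783 with dexamethasone, or 0.51 on the log2 scale (limma, adjusted p = 7.8e-11). The ratio of Meis3 to Meis2 per kb was 0.906, 0.883 and 0.885 in the controls and 2.84, 2.80 and 2.78 with dexamethasone. Per kb, Meis2 was thus the higher in each control library and Meis3 in each dexamethasone library. This order depends on the exon lengths used, 12.043 kb for Meis2 and 3.173 kb for Meis3. In normalized counts not divided by length, Meis2 was above Meis3 in every library.

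Pbx2, Pbx3 and Pbx4 were not differentially expressed. Pbx3 went from a mean normalized count of 2611 (SD 60.0, n = 3) to 3287 (SD 147, n = 3), or 0.33 on the log2 scale (limma, adjusted p = 1.57e-07), with groups that lay apart. Pbx2 had normalized counts of 3538, 3670.4 and 3635 without and 3955, 3557 and 3708 with dexamethasone, which overlapped. Its log2 fold change was 0.05 (95% interval -0.04 to 0.13, limma adjusted p = 0.309), with -0.07 at the same total and -0.10 after quantile normalization. Pbx4, at 62.9 and 50.1 normalized counts, had a log2 fold change of -0.32 (95% interval -0.71 to 0.07, limma adjusted p = 0.136). Of the partners of PBX and MEIS, 8 of 14 genes had a row and 7 were tested, and 0 were differentially expressed, with 3 higher and 3 lower at an adjusted p-value under 0.05 (85.7% in either direction, near the 72.5% of all tested genes). The largest of these differences, chosen after the values were seen, were those of Pbxip1, which encodes a PBX-binding protein, at -0.95, and of the TALE repressor Tgif1 at 0.92 (limma, adjusted p = 1.81e-15 and 3.14e-17). The HOX partners with a row, Hoxa9 and Hoxa10, had log2 fold changes of -0.13 and -0.52 (limma, adjusted p = 0.306 and 2.12e-09).

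Of the 9 T-box genes 5 were tested, and Tbx3, a repressor that acts in the limb and mammary gland, was the differentially expressed member. Tbx3 had normalized counts of 937, 874 and 904 without and 2232, 2044 and 2056 with dexamethasone. It rose from a mean normalized count of 905 (SD 31.8, n = 3) to 2111 (SD 105, n = 3), or 1.22 on the log2 scale (limma, SE 0.0515, adjusted p = 1.01e-16), with a range of 1.11 to 1.25 over the alternatives. The antisense gene Tbx3os1, which overlaps 1.74% of the exon bases of Tbx3, had 13, 14 and 15 reads in the controls and 55, 38 and 44 with dexamethasone. Tbx2, the closest relative of Tbx3, had normalized counts of 329.6, 366 and 338 without and 239, 255 and 233 with dexamethasone, or -0.51 on the log2 scale (limma, adjusted p = 2.3e-05). Per kb, Tbx3 was 1.56, 1.31 and 1.46 times Tbx2 in the controls and 5.10, 4.39 and 4.84 times with dexamethasone. Tbx15 and Tbx18, relatives that act in limb and axial skeleton, were the most abundant of the T-box members per kb of exon in both groups. Tbx15 had normalized counts of 5133, 5414 and 5367 without and 5245, 4838 and 4973 with dexamethasone, which overlapped, with a log2 fold change of -0.08 (95% interval -0.16 to 0.00048, limma adjusted p = 0.0691). This depended on the processing, with log2 fold changes of -0.27 to -0.05 over the alternatives and adjusted p-values (limma, edgeR or DESeq2) of 7.39e-08 to 0.257. Tbx18 had normalized counts of 3599.7, 3907 and 3671 without and 2585, 2608 and 2569.8 with dexamethasone, or -0.52 on the log2 scale (limma, adjusted p = 2.38e-11), and the antisense gene D030062O11Rik, with 21 to 46 reads, overlaps 20.6% of its exon bases. Tbx6, a gene of presomitic mesoderm, was low, at 30.7 and 27.5 normalized counts with a log2 fold change of -0.20 (95% interval -0.78 to 0.38), which was 0.04 without dexamethasone replicate 3. Of the other T-box genes, Mga had a log2 fold change of 0.04 and Tbr1, at 45.7 and 22.9 normalized counts, had -0.98 (limma, adjusted p = 0.28 and 0.00205), and T and Eomes had 0 to 7 reads in each library.

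The LIM-homeobox genes encode homeodomain proteins that work in complexes with LDB and SSBP cofactors. Lhx6, which acts in jaw and forebrain development, had normalized counts of 348, 327 and 329 without and 1031, 918 and 974 with dexamethasone. It rose from a mean normalized count of 334 (SD 11.7, n = 3) to 974 (SD 56.7, n = 3), or 1.54 on the log2 scale (limma, SE 0.0691, adjusted p = 3.65e-16). Every dexamethasone library was far above every control library. The other LIM-homeobox genes were low. Lhx2 had 28, 19 and 11 reads in the controls and 13, 6 and 2 with dexamethasone, and the groups overlapped. With means of 18.0 and 7.09 normalized counts, it passed the filter on low values through its control libraries alone, so that its test is given as a description. Its log2 fold change of -1.35 (limma, SE 0.489, adjusted p = 0.0164) passed the cut-offs, but it was -1.06 without control replicate 1, -1.28 without control replicate 2 and -0.82 without dexamethasone replicate 3, and in each of these it was no longer differentially expressed. Lhx4 had 13, 5 and 18 reads in the controls and 21, 23 and 17 with dexamethasone. Its log2 fold change of 1.05 (limma, SE 0.388, adjusted p = 0.0184) was 0.61 without control replicate 2 and 0.94 without dexamethasone replicate 2, and the call was lost in both. Over the 17 of 19 settings that tested these genes, the adjusted p-value was 0.00179 to 0.113 for Lhx2 and 0.00648 to 0.132 for Lhx4. Stricter filters on low values left both genes out of the others. Lhx9, with 23 to 36 reads, had a log2 fold change of -0.05 (95% interval -0.58 to 0.48). Among 12 LIM-homeodomain partners, 10 had a row and 6 were tested. Ssbp2, a cofactor of LDB proteins, was the differentially expressed one and fell from a mean normalized count of 2824 (SD 52.8, n = 3) to 1120.2 (SD 7.55, n = 3), or -1.33 on the log2 scale (limma, adjusted p = 6.47e-19). Another 4 of the 6 were lower at an adjusted p-value under 0.05 but under the cut-off, and 0 were higher. With Ssbp2 this came to 83.3% of the 6, beside 35.2% of all tested genes that were lower and 72.5% that passed in either direction.

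RefSeq lists several starts for Lhx6, and the window before the most distal of them is shown because it holds AGAACA, the hexamer that makes up each arm of the palindrome bound by the glucocorticoid receptor. It lies at chr2:36105409-36105658 on the minus strand of GRCm38.p6, contains no annotated exon base in GENCODE M21 and is written 5′ to 3′ with AGAACA in capitals.
Lhx6: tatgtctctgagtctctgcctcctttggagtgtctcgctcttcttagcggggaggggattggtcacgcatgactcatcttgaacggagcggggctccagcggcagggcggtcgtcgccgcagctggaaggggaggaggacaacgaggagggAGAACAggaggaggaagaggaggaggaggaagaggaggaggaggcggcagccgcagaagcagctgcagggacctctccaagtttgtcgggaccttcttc
The first base of AGAACA is 99 bases before the start. On either strand the hexamer was in 2 of 35 windows of the members, those of Lhx6 and Shox2, and in 16.1% of all windows. Of the 43 members, 30 had at least 1 window, and Irx5 and Tbx3 were among those without. The match is a description, and the lack of a match says only that the letters are not in these 250 bases.

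Meox1, a homeobox gene of somites, had 30, 37 and 30 reads in the controls and 4, 1 and 2 with dexamethasone. The groups lay apart, with a log2 fold change of -3.25 (limma, SE 0.442, adjusted p = 4.39e-07) and a range of -3.61 to -2.25 over the 17 of 19 settings that tested Meox1. It passed the filter on low values through its control libraries alone. Its neighbour on chromosome 11, Etv4, an ETS factor that responds to FGF signals in the limb bud, went the other way. Etv4 rose from a mean normalized count of 56.5 (SD 11.1, n = 3) to 2861 (SD 105, n = 3), or 5.66 on the log2 scale (limma, adjusted p = 2.3e-24).

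Among the 12 members that were not tested, none exceeded 14 reads in a library. Pitx1 had 4, 2 and 1 reads in the controls and 0, 3 and 3 with dexamethasone, and Tbx4 had 2, 8 and 3 and 3, 1 and 3. The factors of hindlimb identity were thus at 0 to 8 reads among 72596611 to 89910728. The reads were 0 to 14 for Six6, 0 to 6 for Six3, 5 to 11 for Tbx20, 1 to 10 for Lhx3, 0 to 6 for Lhx8 and 1 to 4 for Tbx10. Barx1, Lhx1, Pitx3 and Tbx19 had 0 to 3 reads in every library, and a count of 0 allows up to 3 reads, for counting error only. No difference was detectable at this depth for those 4 genes. Six6 had 14, 11 and 3 reads in the control and 3, 1 and 0 in the dexamethasone libraries, and Six3 had 5, 6 and 5 and 1, 1 and 0. Both were left out by the filter on low values. Without that filter limma gave log2 fold changes of -2.07 for Six6 and -1.89 for Six3 (adjusted p = 0.0101 and 0.00924), which passed the cut-offs. This brought the lower members to 9 of 43, beside 2695 of all 29616 genes in that setting. Both genes had few reads and their highest reads in control libraries, so that these tests are given as a description.

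Levels of the abundant members spread over a wide range. Of the 43 genes, 25 had a mean of at least 100 normalized counts. Per kb of exon (union of GENCODE M21 exons, which may differ from the annotation the authors used), the first 5 in the control libraries were Prrx1, Prrx2, Irx5, Six2 and Irx3, at 7089, 5622, 3721, 3495 and 1934 normalized counts. In the dexamethasone libraries they were Prrx1, Prrx2, Six2, Tbx15 and Irx1, at 3904, 2442, 1902, 1339 and 1057. Irx5 went from rank 3 to rank 15 and Irx3 from rank 5 to rank 13, whereas Meis3 went from rank 13 to rank 8. Of the genes with a mean of at least 100, the 3 that were higher past the fold cut-off, Lhx6, Tbx3 and Six4, had 69.6, 137 and 153 normalized counts per kb in the control libraries, and Meis3 and Pbx3, which were higher under the cut-off, had 617 and 427.

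**Figure D4:**
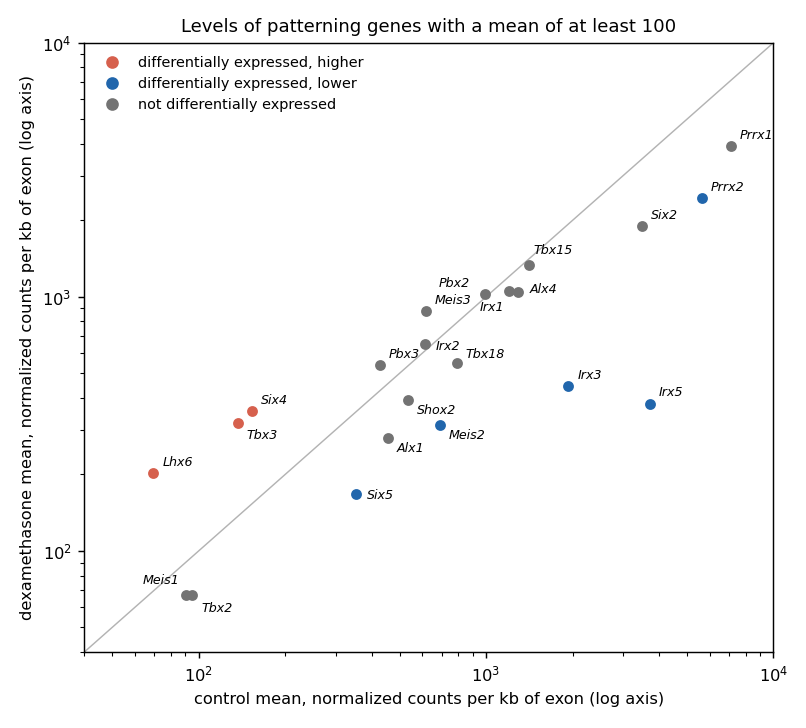
Mean normalized counts per kb of exon in the control (horizontal) and dexamethasone (vertical) libraries, both on log axes, for 22 patterning genes with a mean of at least 100, with a line where the groups are equal. Prrx1 and Prrx2 lie at the top right, Irx3 and Irx5 lie farthest under the line, and Lhx6, Six4 and Tbx3 (red) lie above it.

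The signals and effectors of the limb bud were described from a list of 27 genes, of which 20 had a row and 15 were tested. Of these, 6 were differentially expressed and lower and 2 higher (beside 10.6% and 11.7% of all tested genes), and the median log2 fold change was -0.60, beside 0.000712 for all tested genes. The 4 called genes with the highest mean were En1, Etv5, Ptch1 and Bmp4. Bmp4, a bone morphogenetic protein, fell from a mean normalized count of 5876 (SD 279, n = 3) to 686 (SD 35.5, n = 3), or -3.10 on the log2 scale (limma, adjusted p = 1.7e-25). Ptch1, the hedgehog receptor and a target of the pathway, fell from a mean normalized count of 5144 (SD 161, n = 3) to 1693 (SD 95.7, n = 3), a log2 fold change of -1.60. Gli1, another target of the pathway, was higher and under the cut-off, at 82.6 and 143 mean normalized counts and 0.79 on the log2 scale (limma, adjusted p = 3.71e-05), and was named after its value was seen. En1, the homeobox gene of the ventral limb ectoderm, fell from a mean normalized count of 4786 (SD 185, n = 3) to 2160.0 (SD 156, n = 3), a log2 fold change of -1.15. Etv5, a relative of Etv4, rose from a mean normalized count of 395 (SD 28.6, n = 3) to 6527 (SD 335, n = 3), a log2 fold change of 4.04. The adjusted p-values from limma were 1.71e-20, 5.61e-17 and 1.05e-26 for Ptch1, En1 and Etv5. Over all 5 lists of partners and pathway genes, 34 genes were tested, with 9 differentially expressed and lower (26.5%, against 10.6% of all tested genes) and 2 higher (5.88%, against 11.7%), the 2 being Etv4 and Etv5. The median log2 fold change of the 34 was -0.45.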

How the data were processed

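Bone cells from 3 control and 3 dexamethasone-treated C57BL/6 mice or pools of mice were sequenced. The authors prepared stranded mRNA libraries, used STAR 2.7.10a for alignment and gene counts, and DESeq2 1.36.0 for normalization. Per the labels the genome build was GRCm39, and the annotation release and strand setting of the count were not given in the sources used here. The deposited values are a signal, the read count of a gene divided by 1 size factor per library. Each value was a whole multiple, within 0.001, of the smallest value above 0 in its library, so reads were recovered for 100% of the values, 72596611 to 89910728 per library. Symbols (28087 of 29616 genes), gene order, exon lengths and overlaps came from GENCODE M21 (GRCm38), and no coordinates were joined with the counts. Promoter windows came from RefSeq on GRCm38.p6. Levels of different genes were compared per kb of exon, over the union of all annotated exons, which can be longer than the transcripts present.

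Genes averaging 10 or more normalized counts (17442) were fitted with limma 3.58.1 (lmFit, eBayes with trend, R 4.3.3) on log2(value + 1), two-sided, with Benjamini-Hochberg adjustment and the cut-offs of the study's methods (adjusted p under 0.05, log2 fold change of at least 1). The alternatives tried were edgeR 4.0.16 and DESeq2 1.42.0 on the reads, limma without trend, changed pseudocounts, low-value filters or scaling, a replicate block, and leaving out each library. Methods were tested on simulated data. Windows of 75 bases of the differentially expressed members were found in no other GENCODE M21 gene for at least 97.7% of positions.

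The members and lists were chosen with earlier results of these data known. Members were described by a fixed scheme, differentially expressed ones by library and the others by means, libraries or reads. Of the partner lists (PBX and MEIS, sine oculis, LIM-homeodomain, other T-box, limb bud) up to 4 differentially expressed genes with the highest mean and those beside a member are named. Lists were not tested as sets. A few members enter the counts but are not reported here.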

Additional observations from a re-analysis of the deposited data

How the results depend on the processing

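Under the alternatives the numbers of differentially expressed patterning genes were 3 to 4 higher and 5 to 9 lower where the fold cut-off was kept. Without it they were 7 (22.6% of those tested) and 18 (58.1%). For partner genes the numbers without the fold cut-off were 8 higher (23.5%) and 22 lower (64.7%). Of all tested genes, 37.2% were higher and 35.2% lower without it. Over all genes 2536 were differentially expressed at a mean of at least 50 normalized counts, where fewer genes were tested, and 12645 without the fold cut-off. With 1 library left out at a time, 3878 to 3910 genes were differentially expressed. The members then counted 3 to 4 up and 6 to 7 down, and the partner genes 2 to 3 up and 9 to 11 down. Among fold changes of members under the alternatives, 528 kept their direction and side of the threshold. Lhx2 and Lhx4 account for the 12 that lost the call, and Six2 was among the 2 that gained it. The sign turned for Irx2 (-0.0291 at the same total and -0.0558 after quantile normalization), for Pbx2 (-0.0661 and -0.1012), for Lhx9 (0.0707 after quantile normalization, 0.0558 without control replicate 2 and 0.0091 without dexamethasone replicate 3) and for Tbx6 (0.0425 without dexamethasone replicate 3), and the cause was not tested. The lowest values with 1 library left out, which kept the sign, were -0.1893 for Lhx9 and -0.4361 for Tbx6. Scaling to the same total moved the median of all genes to -0.11 and the share of higher calls from 52.3% to 45.1%. The replicate numbers did not pair the libraries, since deviations of same-numbered libraries from their group means correlated at -0.0999, -0.1049 and -0.0199 over genes. With the replicate block 3897 genes were called, with 4 higher and 7 lower members. Depth limits the members with a mean under 100 normalized counts, of which 6 were tested.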
